A study of Danio rerio with 18 samples.

Results

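The genes described here carry yolk lipid into the zebrafish embryo: apoc1, apoa1b, apoa2, apoeb and apobb.1, which encode apolipoproteins, and mttp, which encodes the microsomal triglyceride transfer protein. They were picked by symbol, and each of the 6 symbols matched 1 of the 32521 gene identifiers in the count tables. The choice was made with earlier results of these data in view, so the stage levels and injection effects of the 6 genes are given as a description. No p-value is printed for them, and nothing is read from how many of them pass a threshold. Embryos came from Tg(ddx4:ddx4-EGFP) females, in which the germ cell gene promoter of ddx4 drives an EGFP fusion that is loaded into the egg, on the ABTL background, mated with casper males, so that all groups share the maternal transgene. At the 1-cell stage they received in the yolk either 0.7 ng of the D16A form of StCsm(EGFP), a purified type III CRISPR-Cas complex whose guide matches the EGFP transcript and whose DNase is inactive, in 1 nl, or the diluted Tris storage buffer alone (mock). Both heterozygous and homozygous transgenic fish were used. Whole embryos were taken at 128 cells, 5 hpf or 24 hpf, with 25 embryos pooled in each library and 3 independent injection experiments (batches) for each of the 6 conditions, 18 libraries in all. A pool of whole embryos is 1 sample, so n = 3 stands for 3 experiments, and a change in the number of cells that make a transcript cannot be told apart from a change in the RNA made per cell.

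As background, a young fish embryo feeds on yolk. The yolk cell is covered by the yolk syncytial layer, a multinucleate layer that takes up yolk lipid, packs it into lipoprotein particles and secretes them into the embryo and, once the heart beats, into the blood. In that assembly line apolipoprotein B is the scaffold of the particle, the transfer protein loads lipid onto it in the endoplasmic reticulum, and the small exchangeable apolipoproteins of the A, C and E classes coat the surface, steer remodelling by lipases and, for apolipoprotein E, bind receptors of the low density lipoprotein receptor family.

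The libraries held 11763787 to 21092691 reads assigned to genes. EGFP, the targeted transcript, was below the same-numbered mock library in 3 of 3 batches at the 128-cell stage (146 to 354 against 234 to 416 CPM, the counts-per-million of reads assigned to genes) and at 5 hpf (55.6 to 98.4 against 92.4 to 139 CPM), and was at 0.851 to 2.10 CPM in all libraries at 24 hpf. Stage markers followed the labels: 13 skeletal muscle genes summed to 14440 to 16100 CPM at 24 hpf and to at most 62.5 CPM earlier. Among the 128-cell libraries, however, mock replicates 1 and 3 stood apart, with 62.5 and 40.7 CPM of these muscle transcripts against 6.58 to 16.1 CPM in the other 4, and at 5 hpf StCsm(EGFP) replicate 2 stood apart with 33.4 against 7.08 to 10.4 CPM.

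Together the 6 genes took 0.000167% to 0.00102% of the assigned reads at the 128-cell stage, 0.322% to 0.382% at 5 hpf and 0.123% to 0.169% at 24 hpf. Within this common course they followed different paths. The transcripts of apoeb and mttp were most abundant at 5 hpf, apoc1 was about as abundant at 5 hpf as at 24 hpf, and apoa1b, apoa2 and apobb.1 were most abundant at 24 hpf. As many reads also come from a longer transcript, and no transcript lengths were used here, levels are compared between stages and samples and not between genes.

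**Figure D1:**
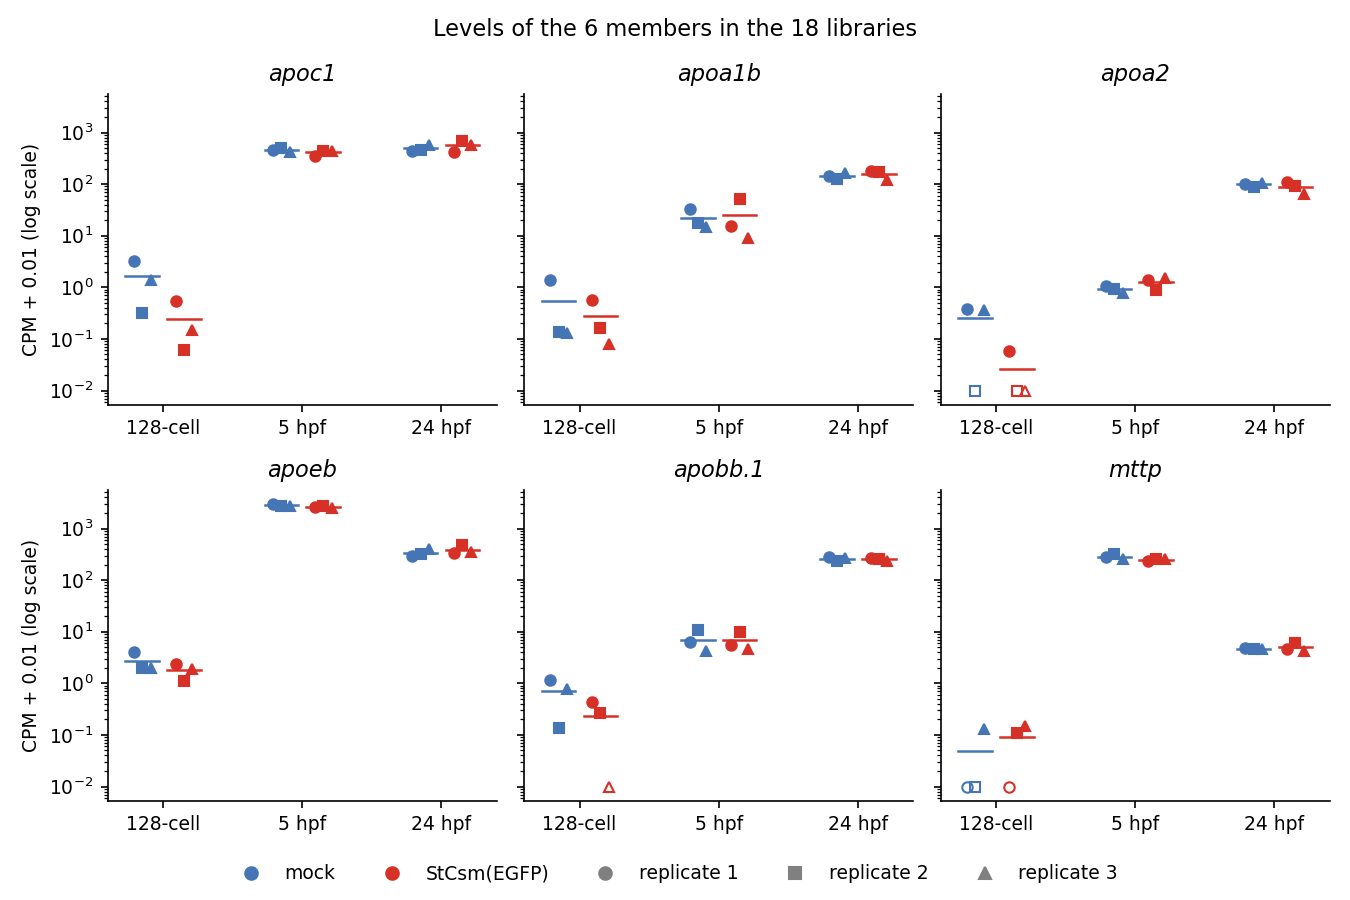
Levels of the 6 genes in each of the 18 libraries, in CPM plus 0.01 on a log scale, by stage. Colour gives the injection, the symbol gives the replicate, open symbols are libraries with 0 reads, and short lines are means of 3 libraries. Mock and StCsm(EGFP) libraries overlap for all 6 genes at the later stages (5 and 24 hpf). Levels differ more between stages, except for apoc1 between 5 and 24 hpf.

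The scaffold and its loading enzyme were most abundant at different stages. mttp was at 0, 0 and 0.12 CPM in the mock libraries of the 128-cell stage (replicates 1, 2 and 3), which is 2 reads in all, at 286, 320 and 255 CPM at 5 hpf, and at 4.93, 4.55 and 4.65 CPM at 24 hpf. In StCsm(EGFP) embryos the same gene gave 0, 0.10 and 0.14 CPM, then 232, 255 and 261 CPM, then 4.56, 6.13 and 4.17 CPM. The 3 stages did not overlap under either injection, and the 24 hpf mock level of 4.71 ± 0.20 CPM (SD, n = 3) lay 60.9-fold below that at 5 hpf. Against the 2 reads of the 128-cell stage, the 11338 mock reads at 5 hpf correspond to a ratio of 6646, with a 95% counting interval of 1839 to 54880.

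apobb.1, 1 of the apolipoprotein B genes, was at 1.16, 0.12 and 0.78 CPM in mock 128-cell libraries, at 6.2, 10.6 and 4.22 CPM at 5 hpf, and at 276, 239 and 264 CPM at 24 hpf. With StCsm(EGFP) it was at 0.43, 0.25 and 0 CPM, then at 5.61, 10.0 and 4.66 CPM, then at 267, 252 and 236 CPM. The mean mock level was 7.02 ± 3.29 CPM at 5 hpf and 260 ± 19.0 CPM at 24 hpf (SD, n = 3), a ratio of 37.6 in pooled reads, whereas mttp was lower at 24 hpf. At 5 hpf replicate 2 was the highest of its group under both injections, 10.6 and 10.0 CPM against 4.22 to 6.2 CPM in the other 4 libraries.

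apoeb, whose product is a ligand of lipoprotein receptors, held 76.4% to 81.0% of the reads of the 6 genes at 5 hpf and 23.5% to 28.3% at 24 hpf. In mock embryos it was at 4.08, 1.99 and 1.98 CPM at the 128-cell stage, 3038, 2781 and 2712 CPM at 5 hpf, and 298, 323 and 394 CPM at 24 hpf. StCsm(EGFP) embryos gave 2.32, 1.11 and 1.87 CPM, then 2611, 2723 and 2545 CPM, then 335, 478 and 353 CPM. It was the only member with more than 20 reads in each of the 128-cell libraries (22 to 56 reads). The pooled mock reads give a ratio of 1095 (95% counting interval 917 to 1320) from the 128-cell stage to 5 hpf, and a level 8.33-fold lower at 24 hpf than at 5 hpf.

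apoc1, whose product modulates lipoprotein remodelling and receptor binding in mammals, reached 458, 511 and 427 CPM at 5 hpf in mock embryos and stayed at 443, 454 and 576 CPM at 24 hpf. StCsm(EGFP) embryos were at 359, 435 and 438 CPM and at 423, 686 and 582 CPM. The ratio of 24 hpf to 5 hpf was 1.07 in the pooled mock reads and 1.38 in the pooled StCsm(EGFP) reads. The ranges of these stages overlapped under both injections. At the 128-cell stage the gene was at 3.20, 0.31 and 1.38 CPM in mock and at 0.52, 0.05 and 0.14 CPM in StCsm(EGFP) libraries.

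The A class members encode components of high density lipoprotein in mammals, apolipoprotein A-I being its main protein. apoa1b was at 1.38, 0.12 and 0.12 CPM, then 32.9, 17.9 and 14.8 CPM, then 145, 124 and 161 CPM in mock embryos. With StCsm(EGFP) it was at 0.57, 0.15 and 0.07 CPM, then 15.8, 51.0 and 9.06 CPM, then 180, 171 and 119 CPM. It was the most variable member at 5 hpf, with a highest library 5.63 times the lowest, against 1.51 times at 24 hpf. The highest, StCsm(EGFP) replicate 2, is the library in which muscle transcripts stood apart. There the muscle genes were at 0.22% and apoa1b at 35.6% of their mean mock levels at 24 hpf, and the part of later transcripts in the apoa1b level was not tested. Its paralogue apoa1a was at 33.0 CPM in that library and at 11.9 to 38.1 CPM in the other 5.

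apoa2 came last. It had 0 to 6 reads in each 128-cell library, 1.05, 0.91 and 0.75 CPM in mock and 1.36, 0.88 and 1.49 CPM in StCsm(EGFP) embryos at 5 hpf (10 to 23 reads), and 99.7, 88.9 and 107 CPM and 111, 92.3 and 64.3 CPM at 24 hpf. Its mock libraries together held 36 reads at 5 hpf and 4063 at 24 hpf, a ratio of 109 (95% counting interval 78.5 to 156). Intervals of ratios are exact and cover counting error only, not the spread between embryos.

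In the fit across all genes, described here with trimmed mean (TMM) scaling and the batch in the model, 6 of 6 members were past the threshold of an adjusted p of 0.1 and higher at 5 hpf than at the 128-cell stage in mock embryos, where 72.1% of 20231 tested genes were past it, 37% higher and 35.1% lower. From 5 hpf to 24 hpf, 3 members were past it and higher (apoa1b, apoa2 and apobb.1), 2 were past it and lower (apoeb and mttp) and apoc1 was not past it, against 81.4% of all genes, 41.8% higher and 39.6% lower. The fitted log2 changes from the 128-cell stage to 5 hpf were 10.72 for apoeb, 8.85 for apoc1, 6.06 for apoa1b, 3.96 for apobb.1 and 2.51 for apoa2. From 5 hpf to 24 hpf they were -5.55 for mttp, -2.68 for apoeb, 0.45 for apoc1, 3.21 for apoa1b, 5.64 for apobb.1 and 7.16 for apoa2. Both contrasts use the 5 hpf mock libraries. As the members were chosen with earlier results in view, these calls describe the members and test nothing about them. The 128-cell values rest on few reads, and without mock replicates 1 and 3 of that stage they became 11.07 for apoc1, 7.78 for apoa1b, 6.71 for apoa2 and 6.51 for apobb.1, higher in each case. Without replicate 1 alone apoa1b was at 7.52. With library totals in place of TMM the median of all genes moved to -0.61 and -0.34 for the respective contrasts, and no member of those past the threshold changed direction.

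The effect of the injection was examined within each batch, as the log2 ratio of the StCsm(EGFP) to the same-numbered mock library, computed on TMM-scaled CPM plus 0.1. At 5 hpf all 6 members passed the filter on low counts and 0 of 6 were past the threshold, where 0% of the 15819 tested genes were. The batch ratios of apoeb were -0.33, 0.10 and -0.03, those of mttp -0.41, -0.19 and 0.09, and those of apoc1 -0.47, -0.10 and 0.10. apobb.1 gave -0.26, 0.04 and 0.20, and apoa1b gave -1.17, 1.64 and -0.64. On this scale the batches disagreed in sign in each of these genes. In CPM without TMM, however, apoeb was lower with StCsm(EGFP) in each batch. It was at 2611, 2723 and 2545 against 3038, 2781 and 2712 CPM, and the 2 injections overlapped. apoa2 gave 0.25, 0.06 and 0.94 at 10 to 23 reads per library, but in CPM without TMM replicate 2 was lower with StCsm(EGFP) (0.88 against 0.91 CPM), and the 2 injections overlapped. The fitted differences ranged from -0.17 ± 0.20 for mttp to 0.47 ± 0.41 for apoa2 (standard error, n = 3 batches).

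By 24 hpf the picture was similar. None of the 6 members was past the threshold, where 0% of 16986 genes were, and for each member 1 batch went against the other 2. On the TMM scale replicate 3 gave the lowest ratio for each of the 6 genes, from -0.81 for apoa2 and -0.50 for apoa1b to -0.05 for apoc1. Replicate 1 was above 0 for 5 of them, with mttp at -0.03. In CPM without TMM, however, apoc1 was lower with StCsm(EGFP) in replicate 1 (423 against 443 CPM) and not in replicate 3 (582 against 576 CPM). apobb.1 was then also lower in replicate 1 (267 against 276 CPM). How many of all genes shared this order was not examined. The fitted differences lay between -0.27 ± 0.19 for apoa2 and 0.10 ± 0.16 for apoeb (standard error, n = 3 batches). A missed threshold does not show equal levels.

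**Figure D2:**
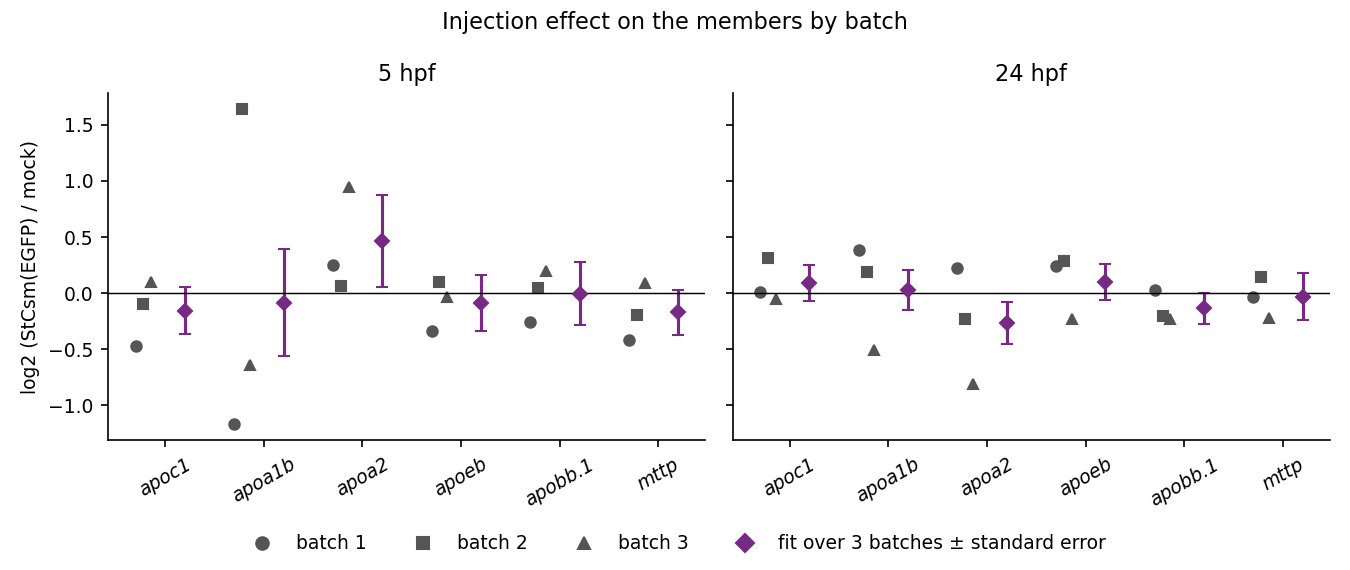
Log2 ratio of StCsm(EGFP) to mock for each member in each of 3 batches (grey symbols), with the fitted difference over the batches and its standard error (purple), at 5 hpf (left) and 24 hpf (right). The line at 0 marks equal levels. The widest spread is that of apoa1b at 5 hpf, from -1.17 to 1.64.

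At the 128-cell stage only apoeb had enough reads to pass the filter on low counts, with batch ratios of -0.80, -0.83 and -0.09 and a fitted difference of -0.62 ± 0.24 (standard error, n = 3 batches), which ran from -0.48 without replicate 1 to -0.85 without replicate 3. apoeb was not past the threshold, where 5.05% of the 15498 genes in this fit were, 2.26% higher and 2.79% lower. apoc1 was lower with StCsm(EGFP) in 3 of 3 batches, with ratios of -2.43, -1.46 and -2.63, at 11, 1 and 2 reads against 44, 5 and 23 reads. apoa2 had 1, 0 and 0 against 5, 0 and 6 reads, and apobb.1 had 9, 5 and 0 against 16, 2 and 13 reads. apoa1b had 12, 3 and 1 against 19, 2 and 2 reads, and mttp had 0, 2 and 2 against 0, 0 and 2 reads, so that apoa1b and apobb.1 were higher with StCsm(EGFP) in replicate 2 and mttp was not lower in any batch. Transcripts of later stages differed between these libraries as well. As a share of the mean mock level at 24 hpf, apoc1 was at 0.652%, 0.0634% and 0.280% in mock replicates 1, 2 and 3, and at 0.106%, 0.0103% and 0.0281% with StCsm(EGFP). The 13 muscle genes were at 0.412%, 0.0579% and 0.268%, and at 0.106%, 0.0433% and 0.0437%. krt4, a keratin of the embryo's surface layer, was at 0.364%, 0.0246% and 0.242%, and at 0.0713%, 0.0063% and 0.0143%. All 13 muscle genes had reads in both mock libraries that stood apart and in StCsm(EGFP) replicate 1, and 2 or 3 of the 13 were at 0 in mock replicate 2 and StCsm(EGFP) replicates 2 and 3. Of the 8 muscle genes that could be tested, 5 were past the threshold, all of them lower with StCsm(EGFP). The part of these transcripts in the low apoc1, apoa2 and apobb.1 reads was not tested. apoeb was higher on this scale than the muscle genes in each of the 6 libraries, at 0.329% to 1.21%. Its mock level at 24 hpf, the base of this scale, was 8.33-fold below that at 5 hpf. The share of apoeb therefore depends on the stage taken as the base.

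**Figure D3:**
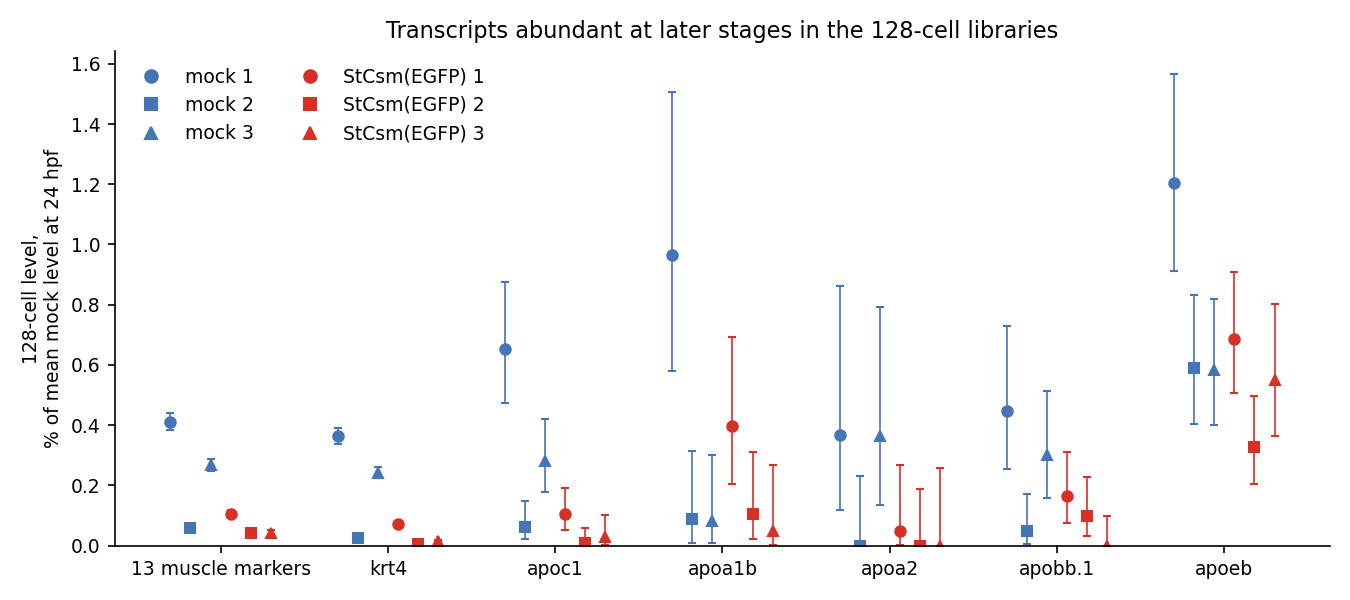
Levels in the 6 libraries of the 128-cell stage as a percent of the mean mock level at 24 hpf, for the sum of 13 muscle genes, for krt4 and for 5 members, with exact 95% counting intervals. Colour gives the injection and the symbol the replicate. Mock replicates 1 and 3 are the highest libraries for muscle genes, krt4, apoc1, apoa2 and apobb.1. For apoa1b and apoeb mock replicate 3 (0.0835% and 0.584%) is below StCsm(EGFP) replicate 1 (0.397% and 0.687%).

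In the RefSeq gene order of the assembly GRCz12tu, used for neighbours alone, apoeb, apoc1 and apoa2 lie in 1 run of 10 coding genes on chromosome 16, of which 8 have apolipoprotein symbols. apoeb and apoc1 are direct neighbours, apoc4 separates apoc1 from apoa2, and apoc2, whose product activates lipoprotein lipase, follows apoa2. apoa1b lies on chromosome 15, apobb.1 on chromosome 20 and mttp on chromosome 1. Neighbours in the run differed in their course. Going along it, the pooled mock ratio of 24 hpf to 5 hpf was 1017 for apoa4b.1 (95% counting interval 348 to 4935, 3 reads at 5 hpf), 5.79 for apoa4b.3 (2.22 to 19.1), 3.42 for apoa4b.2 (2.98 to 3.92), 0.12 for apoeb (0.118 to 0.122), 1.07 for apoc1 (1.05 to 1.09), 109 for apoa2 and 0.332 for apoc2 (0.310 to 0.356). apoc4 had 2 mock reads at 5 hpf and 0 at 24 hpf. apoc2, like apoeb, was most abundant at 5 hpf, at 66.9 to 104 CPM in mock against 23.8 to 28.9 CPM at 24 hpf, and apoa2 between them was at 0.75 to 1.05 CPM at 5 hpf. Reads that could not be placed uniquely were left out of the gene counts by the authors (3.78% to 14.8% of the listed counts), so the levels of near copies such as apoa4b.1, apoa4b.2 and apoa4b.3, or apobb.1 and apobb.2, are less certain than the others.

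**Figure D4:**
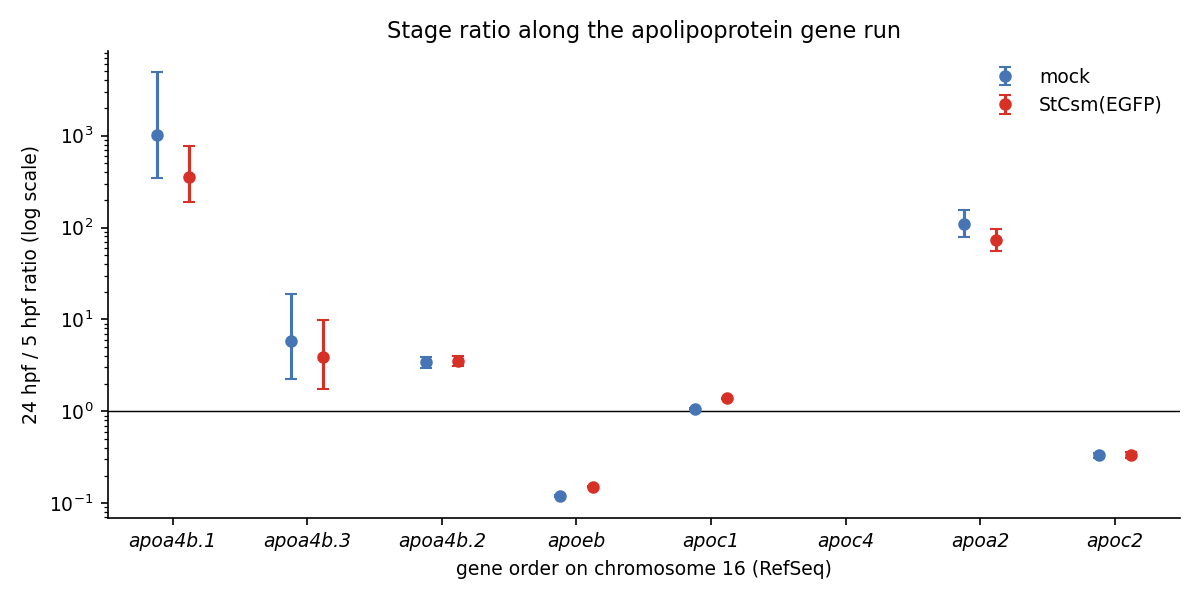
Ratio of the pooled level at 24 hpf to that at 5 hpf for apolipoprotein genes in their RefSeq order on chromosome 16, on a log scale, with exact 95% counting intervals. The line marks a ratio of 1, and apoc4 is not drawn as it had 0 reads at 24 hpf. Ratios run from 0.12 for apoeb to 1017 for apoa4b.1 in mock embryos. apoeb and apoc2 lie below 1 and the other genes drawn lie above it, with apoc1 close to it at 1.07.

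Other genes of lipid transport were taken from 8 lists of genes, in which 98 of 122 symbols matched a single identifier. The lists were drawn up with earlier results known. From the 128-cell stage to 5 hpf, 41 of the 82 tested genes rose and 20 fell, where 37% of all tested genes rose and 35.1% fell. From 5 hpf to 24 hpf, 41 rose and 31 fell, where 41.8% of all genes rose and 39.6% fell. With library totals as the scaling the splits were 34 to 32 and 37 to 37, and over all genes 5303 to 10002 and 7063 to 9409, so the balance of rises and falls depends on the scaling.

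Of the other apolipoproteins, 8 of 12 tested rose by 5 hpf and 1 fell, and 10 rose by 24 hpf and 1 fell, with medians of 2.52 and 4.63 on the log2 scale against 0.00 and 0.03 over all tested genes. Over all genes 37% rose and 35.1% fell by 5 hpf, and 41.8% rose and 39.6% fell by 24 hpf. apoc2 rose most by 5 hpf (log2 change 10.02 ± 0.38, adjusted p = 1.69e-14) and was the gene of this list that fell afterwards (-1.16 ± 0.21, adjusted p = 5.74e-05). apoa4b.1 rose most by 24 hpf (log2 change 10.25 ± 0.45, adjusted p = 1.71e-13). apom, a carrier of sphingosine-1-phosphate in mammals, fell from 12.3 to 23.1 CPM at the 128-cell stage to 3.57 to 5.73 CPM at 5 hpf in mock (log2 change -1.19 ± 0.27, adjusted p = 0.000659, and adjusted p = 0.159 without mock replicates 1 and 3 of the 128-cell stage). Paralogues of the members were most abundant at 24 hpf in mock embryos, with apoa1a at 285 to 369 CPM, apoba at 40.2 to 42.3 CPM, apobb.2 at 18.9 to 23.0 CPM and apoea at 20.2 to 29.4 CPM. apoea, the paralogue of apoeb, had 1 mock read at 5 hpf and 992 at 24 hpf, and so was higher at the stage at which apoeb was lower.

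The assembly and secretion list was split, with 5 genes rising and 5 falling by 5 hpf among 16 tested, and 6 rising and 6 falling by 24 hpf. With library totals the splits were 3 to 10 and 3 to 9. With TMM, 37% of all genes rose and 35.1% fell by 5 hpf, and 41.8% rose and 39.6% fell by 24 hpf. pla2g12b, needed for lipoprotein assembly in mice and zebrafish, rose with the members (log2 change 8.61 ± 0.44, adjusted p = 1.72e-12), from 8 mock reads at the 128-cell stage to 34.3 to 67.7 CPM at 5 hpf. sar1ab, a GTPase of the vesicle coat that exports cargo from the endoplasmic reticulum, fell (-1.94 ± 0.29, adjusted p = 6.83e-06). By 24 hpf soat1 fell (-2.25 ± 0.53, adjusted p = 0.000776), from 43 to 7 mock reads, after 217 mock reads at the 128-cell stage. In mammals soat2 esterifies cholesterol in liver and intestine. Here soat2 rose by 24 hpf (adjusted p = 1.12e-07), from 0 mock reads at 5 hpf to 2.95 to 3.06 CPM. That is at least 39.6-fold higher when 3 reads over the group are taken as the floor.

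Of the receptors and their partners, 8 of 13 fell and 1 rose by 5 hpf (11 and 1 with library totals), beside 35.1% lower and 37% higher over all genes, with a median of -0.69 on the log2 scale. lrpap1, a chaperone of these receptors, fell most (log2 change -2.42 ± 0.26, adjusted p = 1.05e-07), from 168 to 178 CPM in mock at the 128-cell stage to 9.82 to 36.2 CPM. vldlr, which takes up yolk precursor into the egg, was at 323 to 372 CPM and then 43.0 to 67.7 CPM. cd36, a fatty acid and lipoprotein receptor, rose (2.99 ± 0.76, adjusted p = 0.00175), from 4 to 19 mock reads. This call depended on the mock replicates that stood apart. At 5 hpf cd36 was at most 0.60 CPM in mock and at most 0.80 CPM in any library. Afterwards 6 rose and 5 fell, beside 41.8% higher and 39.6% lower over all genes. lrp8 rose most (log2 change 2.98 ± 0.30, adjusted p = 3.2e-08) and lrp13 fell most, to 0.26 to 0.65 CPM (-5.94 ± 0.32, adjusted p = 2.55e-12).

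In the list of lipases and plasma remodelling, 6 of 10 rose and 2 fell by 5 hpf (5 and 3 with library totals), beside 37% and 35.1% of all genes. abca1a, a lipid exporter that feeds apolipoprotein A-I, rose (log2 change 6.94 ± 0.36, adjusted p = 1.62e-12), while lipg, an endothelial lipase, fell (-4.13 ± 0.20, adjusted p = 7.3e-13), from 109 to 124 CPM in mock to 3.00 to 6.10 CPM. Then 6 rose and 3 fell (5 and 4 with library totals), beside 41.8% and 39.6% of all genes. Of these lcat, the enzyme that apolipoprotein A-I activates in mammals, fell most (log2 change -2.92 ± 0.63, adjusted p = 0.000333). Among fatty acid binding proteins 1 of 4 tested genes rose and 1 fell by 5 hpf, and 4 of 4 rose by 24 hpf, beside the same shares of all genes. The largest rise by 24 hpf was that of fabp2, the intestinal type (log2 change 8.50 ± 0.44, adjusted p = 8.95e-12). By 5 hpf fabp10b had risen (adjusted p = 0.000328) from 2 to 30 mock reads, a ratio of 17.6 (95% counting interval 4.46 to 152), and its adjusted p was 0.198 without mock replicates 1 and 3 of the 128-cell stage. fabp3 had fallen (-0.41 ± 0.15, adjusted p = 0.0213), with adjusted p = 0.303 without those replicates. Vitellogenins, the yolk precursors that the mother's liver makes, summed over 8 genes to at most 1.45 CPM in any library, and 0 of 8 had enough reads to be tested.

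Of the transcription factors of the yolk syncytial layer, endoderm and liver, 15 of 21 rose and 2 fell by 5 hpf (14 and 4 with library totals), beside 37% and 35.1% of all genes. By 24 hpf 8 rose and 11 fell, beside 41.8% and 39.6% of all genes. hnf4a, a nuclear receptor that activates apolipoprotein genes and MTTP in mammalian liver, was at 115 to 158 CPM in mock at 5 hpf, against 1 read at the 128-cell stage (ratio 6060, 95% counting interval 1087 to 239400, adjusted p = 2.28e-15) and 0.78 to 1.11 CPM at 24 hpf. mxtx1, a homeobox gene of the layer, stood at 83.4 to 107 CPM at 5 hpf and at most 0.20 CPM at the other stages in mock embryos, and mxtx2, its relative, at 6.81 to 16.7 CPM against at most 2.48 CPM. sox32, an endoderm and yolk syncytial layer factor, fell most by 24 hpf (log2 change -9.41 ± 0.34, adjusted p = 1.31e-14). ppara, a fatty acid sensor, fell by 5 hpf (-1.02 ± 0.34, adjusted p = 0.013, and 0.149 without mock replicates 1 and 3 of the 128-cell stage). foxa1, a factor of endoderm and liver, rose by 24 hpf (adjusted p = 3.98e-11), from 1 to 461 mock reads, a ratio of 445 with a 95% counting interval of 79.5 to 17610.

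Of 6 tested genes listed as solute carriers and proteases of the layer, 5 rose and 1 fell by 5 hpf (3 and 2 with library totals), beside 37% and 35.1% of all genes. By 24 hpf 1 rose and 5 fell, beside 41.8% and 39.6% of all genes. Pools of whole embryos do not show in which tissue a transcript was made. The proteases ctsla and ctsba were at 756 to 839 and 738 to 1292 CPM over all 6 libraries of the 128-cell stage already. slc26a1, a sulphate carrier, had 2 mock reads at the 128-cell stage and 36.0 to 62.2 CPM at 5 hpf (ratio 1100, 95% counting interval 304 to 9087, adjusted p = 2.86e-13). slc40a1, the iron exporter ferroportin, rose by 24 hpf (log2 change 4.78 ± 0.30, adjusted p = 2.66e-11), from 0.91 to 3.91 to 37.4 to 46.4 CPM. Of the yolk proteases, ctsla, a cathepsin L gene, fell most by 24 hpf (-3.21 ± 0.14, adjusted p = 2.08e-13), and ctsba, a cathepsin B gene, had fallen by 5 hpf (-0.55 ± 0.24, adjusted p = 0.0536, but 0.366 without replicate 2).

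**Figure D5:**
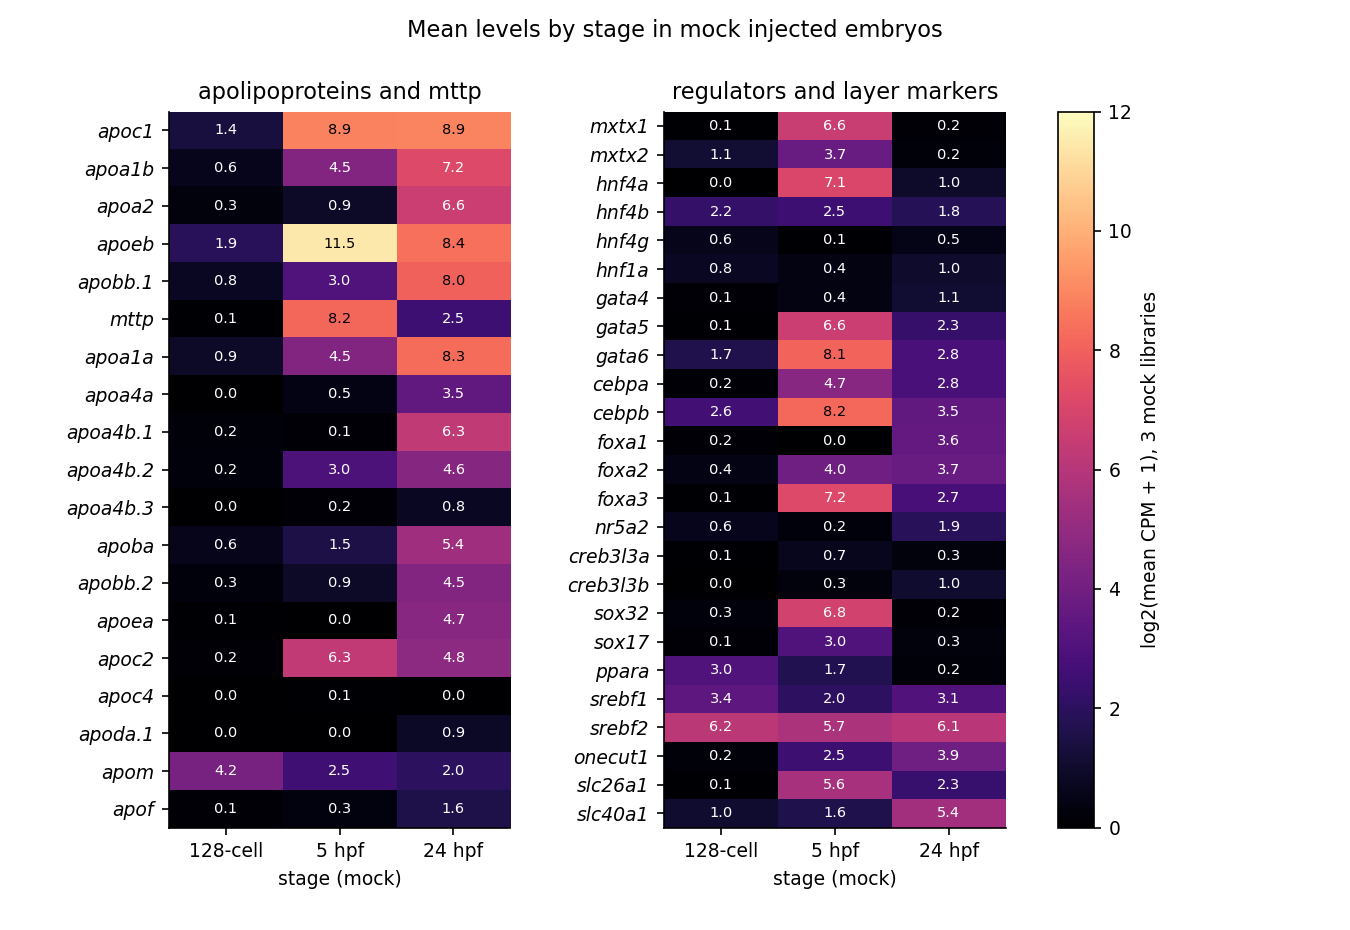
Mean level of each gene in the 3 mock libraries of each stage, as log2(mean CPM + 1), for the members and the other apolipoproteins (left) and for regulators and the transporters slc26a1 and slc40a1 (right). Brighter cells are higher levels, and colours compare stages within a gene, as transcript length differs between genes. apoeb and mttp share the brightest column with hnf4a, mxtx1, foxa3, gata5 and gata6 at 5 hpf, while apoa2, apobb.1 and apoa1a are brightest at 24 hpf. The genes on the right do not share 1 course. foxa1, onecut1, nr5a2 and slc40a1 are brightest at 24 hpf, and ppara is brightest at the 128-cell stage.

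For the injection, 1 of 48 tested list genes was past the threshold at the 128-cell stage, beside 5.05% of all genes, and 12 of 48 list genes and 2897 of 15498 genes in all had an unadjusted p under 0.05. The list gene was fabp3, which was lower with StCsm(EGFP) in 3 of 3 batches, at 113, 75.6 and 112 against 124, 101 and 132 CPM (log2 difference -0.29 ± 0.07, adjusted p = 0.066). The groups overlapped, and the adjusted p was 0.117 without replicate 1, 0.268 without replicate 2 and 0.987 without the batch in the model. At 5 hpf 0 of 64 and at 24 hpf 0 of 70 list genes were past the threshold in edgeR's quasi-likelihood test, with 0 and 2 at an unadjusted p under 0.05 and 0 in DESeq2 at both stages, and 0% of all genes were past it at either stage. A difference of the injection effect among the 3 stages was found in 0 of 82 list genes, with 3 at an unadjusted p under 0.05 and 0 in DESeq2, and in 0% of 20231 genes tested.

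Finally, the genes whose levels ran most like each member over the 18 libraries were sought. They were sought among 12512 genes with a mean of at least 10 CPM in 1 condition or more. The measure was Pearson's r of log2(TMM-scaled CPM + 1). The 18 libraries fall into 3 stages, so r mainly compares the course over stages, and it is given as a description. Among those closest to apoeb were krt18a.1, a keratin gene, and dnase1l4.1, a nuclease gene (r = 0.999 each). NR0B2, a nuclear receptor that represses others in mammalian liver (r = 0.999), GATA5, an endoderm and heart factor (0.998), and slc17a9a (0.997) ran closest to mttp. For apoc1 they were histh1l1 and slc25a55a (0.999 each) and krt5 (0.998), for apoa1b they were CKMT1B (0.993), krt91 and afp4 (0.991 each), for apoa2 DYNLT1, SLC1A3 and EEF2 (0.996 each), and for apobb.1 BNC1 (0.997), DLL1 (0.997) and DENND2D (0.996). Symbols in capitals are those the name table gives to these zebrafish genes. Among the members themselves r was highest for apoa2 with apobb.1 (0.976), apoa1b with apobb.1 (0.954) and apoc1 with apoeb (0.953), and lowest for apoa2 with mttp (-0.04). These values depend on the pseudocount. With 0.1 in place of 1, apoa2 with mttp was still lowest but at 0.304, and apoeb with mttp went from 0.900 to 0.954.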

How the data were processed

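Poly(A)-selected RNA of pooled whole embryos was sequenced in 18 libraries. For each library, raw counts of reads by gene were deposited by the authors. The submitters' processing notes name UMI-tools 1.0.0, cutadapt 2.4, STAR 2.7.2b, HTSeq 0.11.2 and the genome build GRCz11. The 5 special rows were left out of all totals (reads with no feature 11.1% to 17.9% of the listed counts, ambiguous 0.669% to 1.70%, not unique 3.78% to 14.8%). The deposited size-factor-scaled tables and EGFP annotation were not used.

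Of 32521 identifiers 29201 had a symbol. CPM is counts-per-million of assigned reads. Fits used edgeR 4.0.16 in R 4.3.3 (filterByExpr by condition with EGFP kept, TMM, robust quasi-likelihood dispersions, Benjamini-Hochberg adjustment over all tested genes, threshold 0.1), with the batch in each model, as the study did. Each stage was fitted alone for the injection, and all 18 libraries were fitted together for stage changes and their interaction. Same-numbered libraries were taken to come from 1 injection experiment. Their deviations from the group means correlated at 0.557 to 0.757 (128-cell stage), -0.01 to 0.654 (5 hpf) and 0.238 to 0.522 (24 hpf). For libraries with different numbers the ranges were -0.601 to -0.061, -0.709 to 0.616 and -0.411 to 0.224. At 5 hpf these ranges overlap, so the correlations do not show the pairing at that stage. Errors after ± are standard errors for log2 changes and SD for CPM. Counting intervals are exact at 95%. No replicate pair agreed within sampling noise (smallest chi-square per degree of freedom 9.11). The fits were tested on simulated data without batch differences, in which 200 genes were changed by 1 on the log2 scale. For the injection 93.5% (128-cell stage), 38.5% (5 hpf) and 80% (24 hpf) of these were recovered, with 34, 1 and 31 unchanged genes called. For the 2 stage changes 61% and 60.5% were recovered, and for the interaction 33.5%. Counts of 0 at 5 hpf and for the interaction can therefore miss changes of this size.

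The members and lists were chosen with earlier results of these data known. Named list genes were, per list and stage contrast, those with the largest rise and the largest fall among genes past the threshold that changed alike in 3 of 3 batches, and, per injection contrast, up to 3 such genes higher and 3 lower, by p. For likeness they were the 3 genes of highest r per member. Other list genes named (apoa1a, apoba, apobb.2, apoea, apoc4, apoa4b.2, apoa4b.3, sar1b, vldlr, mxtx1, mxtx2 and those pointed to in the plot of mean levels) were picked after their values were seen. Alternatives were no batch term, DESeq2 1.42.0, its size factors, library totals, other filters, a threshold of 0.05, dispersions without robust estimation, a joint fit of the 18 libraries, StCsm(EGFP) in place of mock embryos for stage changes, a pseudocount of 0.1, and each replicate left out. Promoter and protein sequences were not analysed here, and some items that the naming rule selects are not reported here.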

Additional observations from a re-analysis of the deposited data

How the results depend on the processing

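Among the alternatives run, the log2 changes of the members kept their direction wherever the main value was past the threshold, and named list genes kept their call in 316 checks and lost it in 15. The rest are given here with the cause not tested. At the 128-cell stage 783 genes were past the threshold for the injection, against 0 with no replicate block, 1513 with no filter on low counts, 199 at a threshold of 0.05, 1 in the joint fit of 18 libraries, and 102 (without replicate 2) to 875 with a replicate left out. The matching count of list genes, 1, became 0 with no replicate block, 4 with no filter, 0 at 0.05, 0 in the joint fit, and 0 to 1 with a replicate left out. With no filter, the fitted differences of the members at that stage ran from -3.25 for apoa2 to 0.95 for mttp. In that setting, which tests every gene with at least 1 read, apoc1 at -2.72 was past the threshold and the other members were not, beside the 1513 genes in all. apoc1 rested on 11, 1 and 2 reads against 44, 5 and 23 reads. Nothing about the members is read from this call. For 5 hpf the count of 0 genes became 6 with no filter, 2 in DESeq2, 1 in the joint fit and 0 to 22 (without replicate 2) with a replicate left out, with 131 of 15819 at an unadjusted p under 0.05. For 24 hpf it became 72 with no filter and 0 to 46 (without replicate 3) with a replicate left out, with 819 of 16986 at an unadjusted p under 0.05 and 0 in DESeq2. The interaction count of 0 became 2 with no filter, 3 in DESeq2 and 0 to 3 with a replicate left out. Requiring 10 counts in every library left 10767 genes to test, of which 8543 and 8584 changed by 5 hpf and by 24 hpf, and 24 and 26 list genes. With library totals 5303 genes rose and 10002 fell by 5 hpf against 7477 and 7110 with TMM. Without mock replicates 1 and 3 of the 128-cell stage, a setting chosen after seeing the data, 49 of 83 list genes changed by 5 hpf against 61 of 82. Of the 18 genes selected for likeness, 5 were also selected with a pseudocount of 0.1. At the 128-cell stage 5 of 6 members had too few reads to pass the filter on low counts.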
